A study of Mus musculus with 18 samples.

Results

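The genes described here encode the nuclear-encoded subunits of the mitochondrial respiratory chain, complexes I to V. They were chosen by name alone, as every array probe whose annotated symbol begins with Nduf (supernumerary and core complex I series A, B, C, S and V), is Sdha, Sdhb, Sdhc or Sdhd, or begins with Uqcr, Cox4 to Cox8 or Atp5. The rule took 118 probes of 78 genes, out of 34885 probes and 19057 genes with a single symbol. Of the 78 genes, 34 belong to complex I, 4 to complex II, 7 to complex III, 17 to complex IV and 16 to complex V, the ATP synthase. Ndufa4, named as a complex I subunit, is counted with complex IV, where the protein is now placed. One of the probes counted in complex I is annotated to a pseudogene, Ndufs5-ps, and none is named for Cox8a, Atp5g1 or Ndufa4l2.

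The arrays carry RNA of cells taken by a surface marker with magnetic beads from colon tumours of C57Bl/6 mice aged 17 weeks. The genotype, abbreviated FAK, holds a Cre transgene (Fapbl-Cre), 1 floxed Apc allele and a tetracycline-controlled allele, and all groups were kept with doxycycline. The labels do not spell out which promoter drives the Cre, and each of the labels FAK5, FAK1 and FAK7 stands for a single mouse. There are 6 groups of 3 arrays: FAK5 with 1 µM U73122 for 24 h and FAK5 untreated, FAK1 with U73122 and untreated, and FAK7 with U73122 and untreated. U73122 is a small molecule used to inhibit phospholipase C. No label says that replicates were separate cultures, so p-values measure the spread between these arrays, which may be technical. In untreated FAK5 and untreated FAK1 that spread also lies between arrays that differ in their sex transcripts, as given below.

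The markers on the arrays went against the tissue label. Epcam, which marks epithelial cells at their surface, reached detection on 0 of 18 arrays, and of 23 colon epithelium genes between 4 and 10 were detected on all 3 arrays of a group. The median signal of 15 skeletal muscle genes was 14.32 to 14.41 (log2) on FAK5 arrays, 4.93 to 12.57 on FAK1 arrays and 4.42 to 4.55 on FAK7 arrays. Ucp1, the uncoupling protein of brown fat, gave 4.22 to 5.05 on FAK5 arrays, 12.35 to 13.85 on FAK1 arrays and 4.41 to 5.91 on FAK7 arrays. Hpx, a plasma protein made by the liver, gave 4.32 to 5.09 on FAK5 and FAK1 arrays and 14.44 to 14.69 on FAK7 arrays. Untreated replicates 1 and 3 of both FAK5 and FAK1 carried Eif2s3y, a Y-chromosome transcript, while the other arrays of those labels carried Xist, which goes against labels that name a single mouse. All FAK7 arrays carried Eif2s3y. Label, animal and tissue cannot be told apart in this design, and in bulk RNA neither can fewer cells of a type and less RNA per cell.

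The respiratory chain passes electrons from NADH (complex I) and succinate (complex II) through complexes III and IV to oxygen, and the proton gradient this builds drives ATP synthesis by complex V. Most subunits are encoded in the nucleus and are made in nearly every cell, in amounts that follow the mitochondrial content of the tissue, which is high in muscle, heart and brown fat. Several complex IV subunits exist as gene pairs: a ubiquitous, so-called liver form (Cox6a1, Cox7a2, Cox8a) and a form of heart and skeletal muscle (Cox6a2, Cox7a1, Cox8b), of which Cox7a1 and Cox8b are also known from brown fat. The 13 subunits encoded in mitochondrial DNA have no named probe here.

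The 250 bases upstream of the RefSeq start (GRCm38.p6) were read for the 64 members with an entry. They held a median of 14 CG dinucleotides, against 6 over all 27025 promoters of the table, and 3 of the 64 (4.69%) held under 5, against 44.5% of all promoters. Those 3 were Cox8b with 1, Cox7a1 with 4 and Ndufc2 with 4. The muscle-form genes Cox7a1 and Cox8b are shown because they had some of the largest differences between labels, beside the ubiquitous forms Cox7a2 and Cox6a1, the second of which went against most members. Capitals mark matches, on either strand, to the motifs searched: GCGCATGC (the core of the NRF1 motif), CGGAAG (the ETS core bound by GABP), AAGGTCA (a site of estrogen-related receptors), CAGCTG (an E-box) and the MEF2 motif. The regions are chr7:30183921-30184170 (plus strand) for Cox7a1, chr7:140900447-140900696 (minus) for Cox8b, chr5:115348959-115349208 (minus) for Cox6a1 and chr9:79759854-79760103 (minus) for Cox7a2.
Cox7a1: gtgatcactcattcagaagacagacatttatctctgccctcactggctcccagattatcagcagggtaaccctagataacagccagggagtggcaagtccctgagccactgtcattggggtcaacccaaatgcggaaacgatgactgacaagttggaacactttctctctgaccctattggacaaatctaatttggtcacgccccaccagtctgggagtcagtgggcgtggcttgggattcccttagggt
Cox8b: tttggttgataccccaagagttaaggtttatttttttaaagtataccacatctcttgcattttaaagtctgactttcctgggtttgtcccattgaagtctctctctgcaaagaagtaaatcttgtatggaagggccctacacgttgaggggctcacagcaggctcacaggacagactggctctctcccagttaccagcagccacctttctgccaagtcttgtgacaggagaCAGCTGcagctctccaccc
Cox6a1: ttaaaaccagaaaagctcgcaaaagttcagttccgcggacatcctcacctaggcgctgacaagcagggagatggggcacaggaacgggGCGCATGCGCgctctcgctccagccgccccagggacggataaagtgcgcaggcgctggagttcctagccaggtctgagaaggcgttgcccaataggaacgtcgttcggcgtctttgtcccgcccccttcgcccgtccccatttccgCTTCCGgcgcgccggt
Cox7a2: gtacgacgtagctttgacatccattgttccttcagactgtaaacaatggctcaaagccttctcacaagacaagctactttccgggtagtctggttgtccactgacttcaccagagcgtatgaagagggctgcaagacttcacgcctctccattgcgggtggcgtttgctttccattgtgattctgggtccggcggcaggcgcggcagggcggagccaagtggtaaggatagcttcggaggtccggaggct
Cox6a1, with 26 CG dinucleotides, holds 2 overlapping NRF1 cores and 1 ETS core, Cox8b holds 1 E-box, and Cox7a1 and Cox7a2 hold no match in this window. Over the 64 members, GCGCATGC was found in 8 (12.5%, against 2.32% of all promoters), CGGAAG in 20 (31.3% against 13.8%), AAGGTCA in 4 (6.25% against 4.05%), CAGCTG in 5 (7.81% against 12.8%) and the MEF2 motif in 0 (against 3.01%). A match of letters is a description of the sequence and shows no binding.

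Levels below are normalized log2 signals of the brightest probe of a gene, and differences are on the log2 scale. A gene was tested when 1 or more groups had its probe detected (detection p under 0.05) on each of their 3 arrays, and it is called when limma's p, adjusted over all 11406 genes tested, is under 0.05. Of the 78 members, 75 were tested and 69 were detected on all 18 arrays. The 3 not tested were Cox7b2 and Cox8c, both known as testis forms and detected on 0 arrays, and Uqcrfs1, the Rieske iron-sulfur protein of complex III, detected on 6 of 18 arrays at 4.34 to 5.40. On 25 members the signal lay within 1 log2 unit of the top of the scale (14.77) on some array, so that differences among bright signals can be compressed.

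Subunits of all 5 complexes were higher under FAK5 and FAK1 than under FAK7. Over the members tested, the median level of an array was 12.64 to 12.97 on FAK5 arrays and 12.87 to 13.17 on FAK1 arrays, against 11.27 to 11.43 on FAK7 arrays. FAK5 over FAK7, 73 of 75 members were called higher and 2 lower, where 40.5% of all genes were called higher and 40.0% lower. The median difference was 1.38, against 0.02 over all genes tested. FAK1 over FAK7, 72 were called higher and 2 lower (40.3% and 35.3% of all genes), with a median of 1.58 against 0.08. The 6 arrays of each label did not overlap for 66 members in the first comparison (65 higher, 1 lower) and 72 in the second (70 higher, 2 lower). Over all genes, 30.8% were all higher and 30.4% all lower FAK5 over FAK7, and 29.8% and 27.0% FAK1 over FAK7. The filter could admit a member through the label where it is high. Among the 69 detected on every array, 67 were higher and 2 lower FAK5 over FAK7, and 66 higher and 2 lower FAK1 over FAK7. Of all 6844 genes so detected, 2787 were higher and 2663 lower in the first comparison, and 2971 and 2274 in the second. With no filter, over all 78 members, each comparison gave 72 higher and 2 lower. Of all 19057 genes, 5471 were then higher and 5321 lower in the first comparison, and 4883 and 4719 in the second. The members called lower were Cox6a1 and Uqcrq in the first comparison and Atp5g3 and Atp5j in the second. Both comparisons share the FAK7 arrays.

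FAK5 over FAK1 the differences were smaller, with 38 members called lower and 7 higher and a median of -0.23, against -0.03 over all genes. The 50.7% called lower stands against 32.9% of all genes, and the 9.33% called higher against 27.8%. Among the 69 members detected on all 18 arrays, 36 were lower and 6 higher, with a median of -0.23. Of all 6844 genes so detected, 2686 were lower and 1941 higher, with a median of -0.10. Of the members tested, 16 were called lower when arrays were centred on cytosolic ribosomal protein genes, which moved the median of all genes to 0.11. The count called higher was 11 without untreated FAK5 replicate 2. Of the 7 members called higher, 2 belonged to complex IV and 5 to complex V. The 3 probes of Atp5j, counted in complex V, gave 1.69, 2.11 and -0.83, so no direction can be given for it FAK5 over FAK1. The Cox7a2 call (0.32) was lost among untreated groups (0.31, limma adjusted p = 0.171) and among treated groups (0.32, 0.0895), and when some single arrays were left out. The Atp5g2 call was lost among untreated groups. Without the 4 untreated arrays that carry Eif2s3y, 70 members were higher and 2 lower FAK5 over FAK7, 71 and 3 FAK1 over FAK7, and 6 and 34 FAK5 over FAK1. The 3 FAK1 arrays with the most muscle signal are the 3 U73122 arrays, so leaving them out removes the treated group too. The counts were then 71 and 2 FAK1 over FAK7, and 7 and 29 FAK5 over FAK1.

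**Figure D1:**
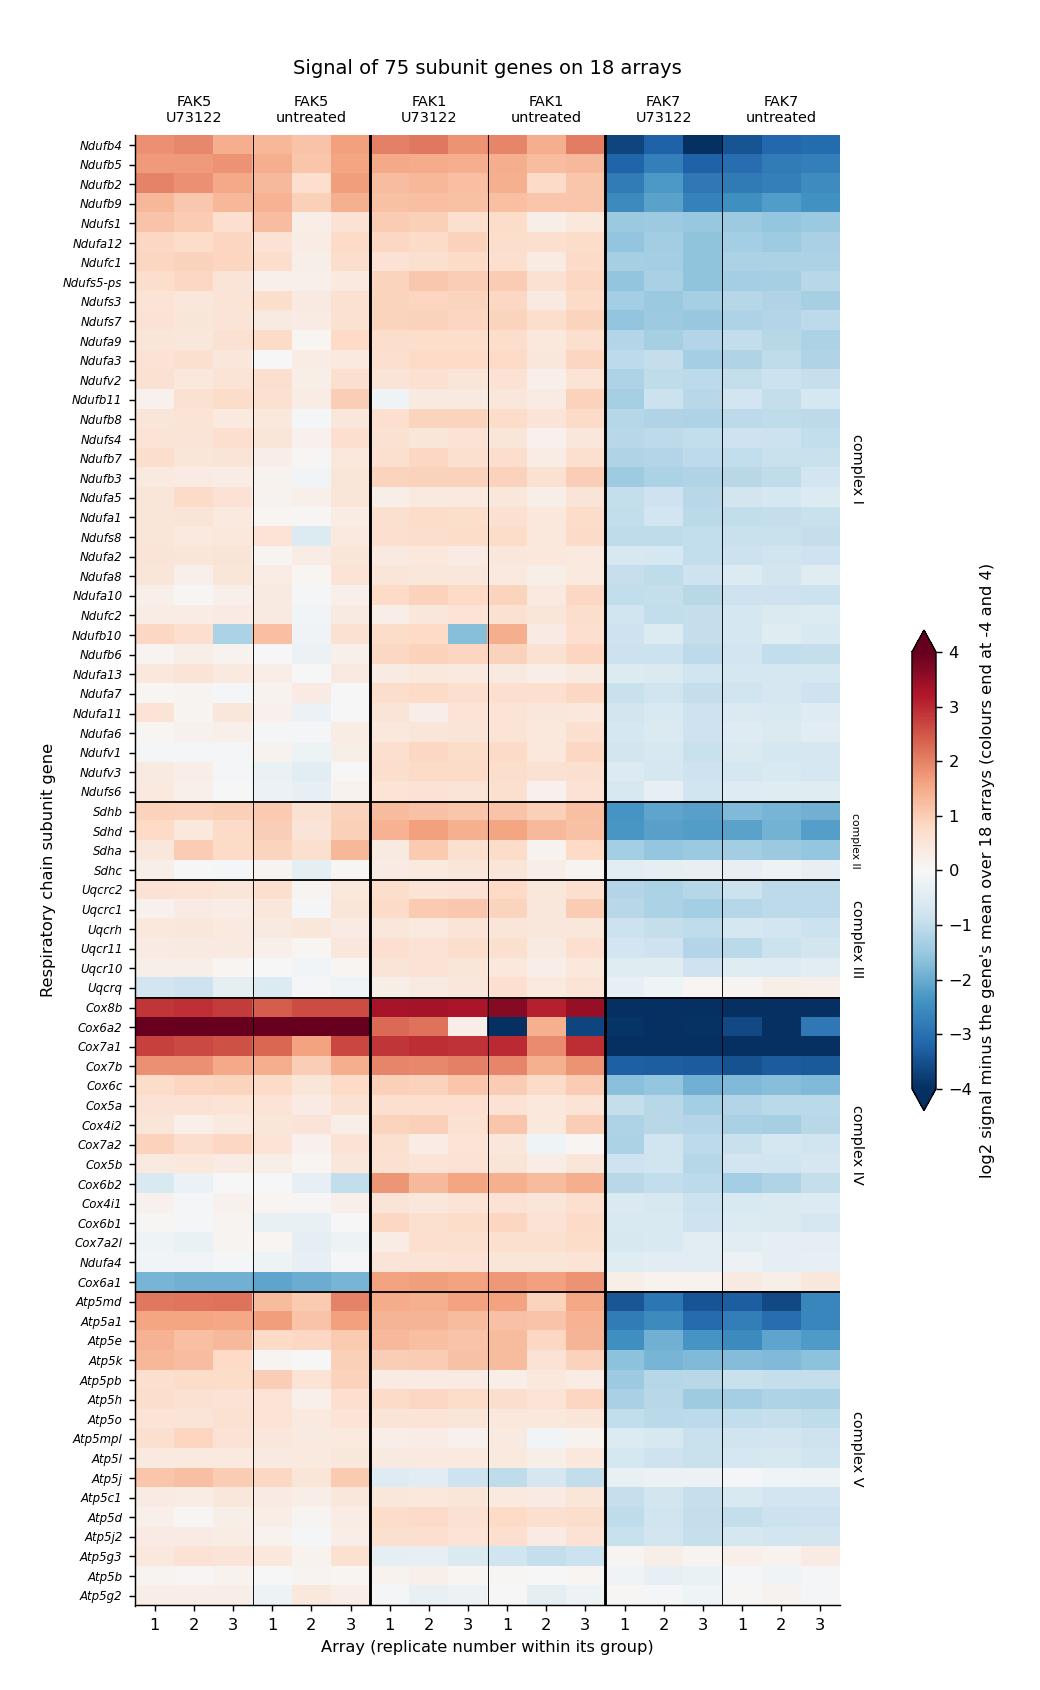
Log2 signal of the 75 tested subunit genes (rows, grouped by complex and sorted by their FAK5 over FAK7 difference) on 18 arrays (columns), as the difference from the mean of the gene over all arrays; red is above and blue below that mean. The FAK7 columns are blue in most rows, and Cox6a1, Cox6a2, Atp5g3 and Atp5j break the pattern between FAK5 and FAK1. Each row is the brightest probe of its gene, and the other probes of Atp5j do not all go the same way.

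Complex I, the NADH dehydrogenase that takes in electrons from NADH, was higher in both comparisons with FAK7 for 34 of 34 members, with a median of 1.41 FAK5 over FAK7 and 1.64 FAK1 over FAK7. FAK5 over FAK1, 19 of the 34 were called lower and 0 higher, with a median of -0.24. The members with the largest differences, Ndufb4 and Ndufb5, are supernumerary subunits of the membrane arm, and each was read from its only probe. Ndufb4 had 10.37, 10.77 and 11.15 (lowest, median and highest of 6 arrays) under FAK5 and 10.68, 11.21 and 11.33 under FAK1, against 5.21, 5.89 and 6.15 under FAK7. The FAK7 arrays lay below all others, by 4.98 ± 0.14 FAK5 over FAK7 and 5.33 ± 0.14 FAK1 over FAK7 (SE, limma adjusted p = 1.05e-15 and 4.49e-16). Ndufb5 had 12.29, 12.81 and 12.96 under FAK5 and 12.42, 12.62 and 12.70 under FAK1, against 7.96, 8.26 and 8.46 under FAK7, a gap of 4.51 and 4.36. Among the members with the smallest differences, Ndufs6, an accessory subunit of the hydrophilic arm, was higher by 0.57 ± 0.10 FAK5 over FAK7 and by 1.04 ± 0.10 FAK1 over FAK7 (limma adjusted p = 7.85e-05 and 6.53e-08) on its brightest probe. Its second probe, detected on all arrays, gave -0.54 (limma adjusted p = 0.00174) and 0.06 (0.691), and the FAK5 over FAK7 call was lost with the mean of probes (0.014, 0.921) and among untreated groups (0.34, 0.0678), so no direction can be given for Ndufs6 FAK5 over FAK7. Ndufv3, an accessory subunit beside the NADH-binding site, differed by 0.65 and 1.38, and by -0.73 FAK5 over FAK1, where the arrays did not overlap. Ndufb6 showed the largest complex I difference of that comparison, at -0.75 ± 0.08 (limma adjusted p = 2.97e-07). Ndufs1, the largest core subunit, which carries iron-sulfur clusters, was detected on 0 FAK7 arrays, so that its signal was at least 3.39-fold higher FAK5 over FAK7 and at least 3.05-fold higher FAK1 over FAK7 (limma adjusted p = 1.26e-10 and 4.46e-10). Such a bound sets the dim arrays to no less than the lowest signal among detected probes. The only Ndufs1 probe was dim under FAK5 too (6.09 to 7.07), so the lack of detection does not show that Ndufs1 was absent.

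Complex II, succinate dehydrogenase, also a step of the citrate cycle, was higher over FAK7 for all 4 subunits. Sdhb, the iron-sulfur subunit, had 12.97, 13.31 and 13.42 (lowest, median, highest) under FAK5 and 13.34, 13.53 and 13.65 under FAK1, against 10.01, 10.36 and 10.61 under FAK7. Sdhd, a membrane anchor, was 2.90 ± 0.10 higher FAK5 over FAK7 and 3.57 ± 0.10 higher FAK1 over FAK7, beside 2.92 ± 0.08 and 3.18 ± 0.08 for Sdhb. Sdha, the flavoprotein, was detected on 0 FAK7 arrays and was at least 3.37-fold higher FAK5 over FAK7 and at least 2.87-fold higher FAK1 over FAK7 (limma adjusted p = 1.83e-10 and 1.08e-09). Its only probe was dim under FAK5 too (6.26 to 7.12), so the lack of detection does not show that Sdha was absent. Sdhc, the other anchor, differed by 0.34 ± 0.09 FAK5 over FAK7 on its brightest probe (limma adjusted p = 0.00166, or -0.025 with arrays centred on their medians) and its second probe, detected on 0 FAK7 arrays, was at least 22.3-fold higher, so the 2 probes differ in size. Among untreated groups the call of the brightest probe was lost (0.23, limma adjusted p = 0.174). Without the 4 untreated arrays that carry Eif2s3y, the brightest Sdhc probe differed by 0.19 FAK5 over FAK7. FAK5 over FAK1, 3 of the 4 were called lower, and Sdha differed by 0.23 ± 0.16 (limma adjusted p = 0.216). The Sdhb call there was lost with arrays centred on ribosomal protein genes (-0.11, limma adjusted p = 0.517) and among untreated groups (-0.24, 0.146). So was that of Sdhc (-0.20, limma adjusted p = 0.227, and -0.35, 0.0655).

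Complex III, cytochrome bc1, passes electrons from ubiquinol to cytochrome c. Of 6 members tested, 5 were higher and 1 lower FAK5 over FAK7, and 6 were higher FAK1 over FAK7. The core proteins Uqcrc1 and Uqcrc2 were 1.44 and 1.54 higher FAK5 over FAK7 and 2.04 and 1.71 higher FAK1 over FAK7. Uqcrq, a small ubiquinone-binding subunit, had 7.02, 7.39 and 7.76 under FAK5 and 8.09, 8.26 and 8.51 under FAK1, against 7.53, 7.94 and 8.07 under FAK7. It was the member in complex III called lower FAK5 over FAK7, with a difference of -0.48 ± 0.11 (limma adjusted p = 0.000783) and overlapping arrays. Its arrays under FAK1 lay above those of FAK7 without overlap. The FAK1 over FAK7 call of Uqcrq was lost with arrays centred on their medians (0.20, limma adjusted p = 0.112) and among untreated groups (0.35, 0.0689). FAK5 over FAK1 Uqcrq differed by -0.90, the most negative difference in complex III. Uqcr10 and Uqcrc1 differed by -0.36 and -0.60 FAK5 over FAK1, and Uqcrh, the hinge protein, differed by -0.06 there, or by 0.083 with arrays centred on ribosomal protein genes.

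**Figure D2:**
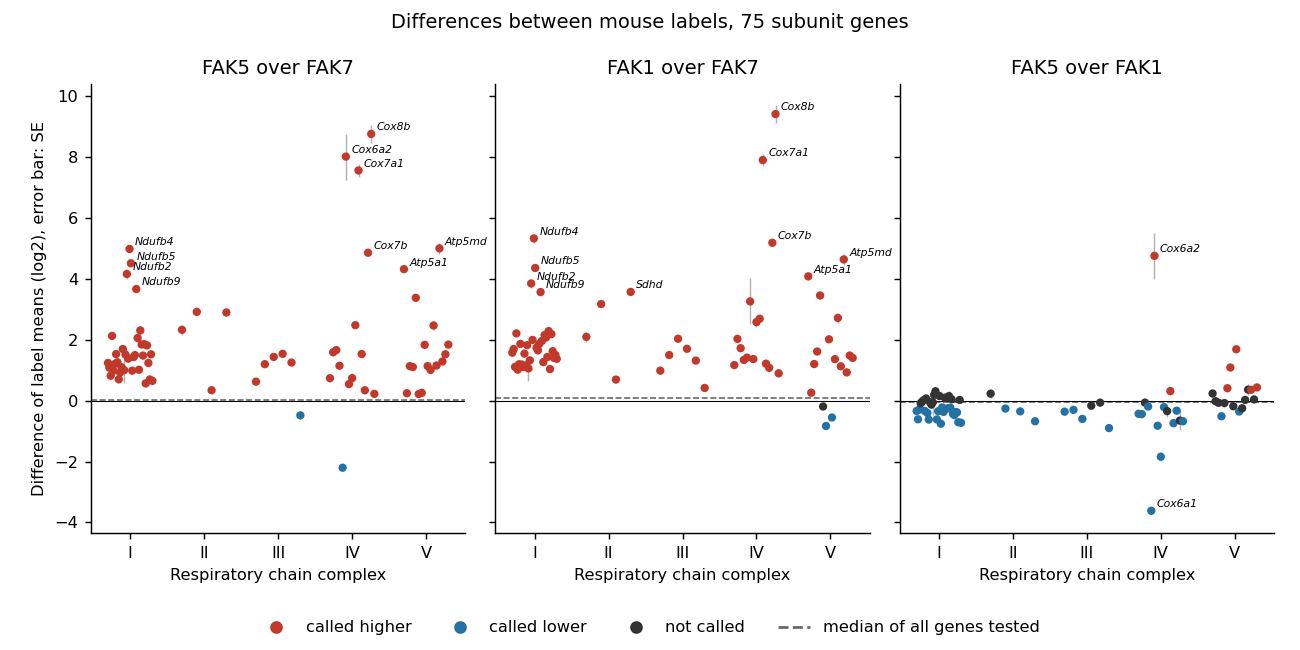
Difference of label means in log2 (y axis) for 75 subunit genes by complex (x axis), with the standard error; red points were called higher, blue lower and black neither, and the dashed line is the median of all 11406 genes. In the left and middle panels nearly all points lie above the line, with Cox8b, Cox7a1 and Cox7b among the highest, while the right panel is centred near 0 apart from Cox6a2 (4.76) and Cox6a1 (-3.62).

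Complex IV, cytochrome c oxidase, which reduces oxygen, held the widest range of differences, from -2.20 to 8.76 FAK5 over FAK7 and from 0.90 to 9.41 FAK1 over FAK7. Of 15 members tested, 14 were higher and 1 lower in the first comparison and 15 were higher in the second, and FAK5 over FAK1 2 were higher and 10 lower. The tissue forms of subunits 6a, 7a and 8 did not move together. The muscle forms Cox7a1 and Cox8b were high under both FAK5 and FAK1 and low under FAK7, and Cox6a2 was high on every FAK5 array but not on every FAK1 array.

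Cox8b had 13.86, 13.91 and 13.79 on U73122 arrays and 13.42, 13.60 and 13.59 on untreated arrays of FAK5. Under FAK1 it had 14.30, 14.31 and 14.26 with U73122 and 14.63, 14.11 and 14.48 untreated, and under FAK7 it had 4.39, 4.40 and 5.26 with U73122 and 6.78, 4.40 and 4.36 untreated. It was detected on 2 of the 6 FAK7 arrays, U73122 replicate 3 and untreated replicate 1, and on the second of these Ucp1 was also above the other FAK7 arrays, at 5.91. The fitted difference was 8.76 ± 0.30 FAK5 over FAK7 and 9.41 ± 0.30 FAK1 over FAK7 (limma adjusted p = 1.39e-14 and 5.85e-15). With the 4 undetected FAK7 arrays raised to the lowest detected signal it was at least 8.40 and 9.05. FAK5 over FAK1 it was -0.65 ± 0.30 (limma adjusted p = 0.0711), although all 6 FAK5 arrays lay below all 6 FAK1 arrays. It passed the threshold (limma adjusted p = 0.000339) without untreated FAK7 replicate 1, which enters through the shared spread.

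Cox7a1 had 13.93, 13.84 and 13.74 with U73122 and 13.49, 12.82 and 13.86 untreated under FAK5. Under FAK1 it had 14.07, 14.16 and 14.09 with U73122 and 14.18, 13.08 and 14.15 untreated, and under FAK7 it had 6.29, 5.96 and 5.43 with U73122 and 6.57, 6.28 and 5.78 untreated. The untreated replicate 2 was the low array under both FAK5 and FAK1, and no array of either came near those of FAK7. Cox7a1 was 7.56 ± 0.21 higher FAK5 over FAK7 and 7.90 ± 0.21 higher FAK1 over FAK7. Its ubiquitous partner Cox7a2 was higher by 1.53 ± 0.12 and 1.22 ± 0.12, so the change of Cox7a1 exceeded that of Cox7a2 by 6.03 and 6.69. Cox7a2l, which links complexes III and IV into supercomplexes, differed by 0.34 ± 0.09 FAK5 over FAK7, or -0.031 with arrays centred on their medians, and by 1.08 ± 0.09 FAK1 over FAK7.

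Cox6a2 had 14.40, 14.44 and 14.49 with U73122 and 14.13, 14.49 and 14.39 untreated under FAK5. Under FAK1 it had 12.39, 12.29 and 10.39 with U73122 and 4.70, 11.56 and 6.47 untreated, and under FAK7 it had 6.20, 6.12 and 6.18 with U73122 and 6.53, 5.91 and 7.28 untreated. The FAK1 arrays were spread widely and overlapped those of FAK7, while the FAK5 arrays lay above both. FAK5 over FAK7 the difference was 8.02 ± 0.75, and FAK5 over FAK1 it was 4.76 ± 0.75 (limma adjusted p = 2.08e-08 and 2.76e-05). FAK1 over FAK7 it was 3.26 ± 0.75 (limma adjusted p = 0.000801), but 1.20 (adjusted p = 0.268) without the 3 U73122 arrays of FAK1, which had the most muscle signal, and 1.00 (adjusted p = 0.527) with the U73122 arrays of all labels left out. Both values rest on the same 3 untreated FAK1 arrays. It was 5.25 (limma adjusted p = 1.52e-08) without the 4 untreated arrays that carry Eif2s3y, which include the 2 FAK1 arrays with the least Cox6a2, and FAK5 over FAK1 it was then 2.84. On the FAK1 arrays the median of the 15 muscle genes was 12.47, 12.57 and 10.62 with U73122 and 4.93, 10.42 and 8.15 untreated, which places the arrays in nearly the same order as Cox6a2. The part of this muscle signal in the FAK1 values was not tested.

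**Figure D3:**
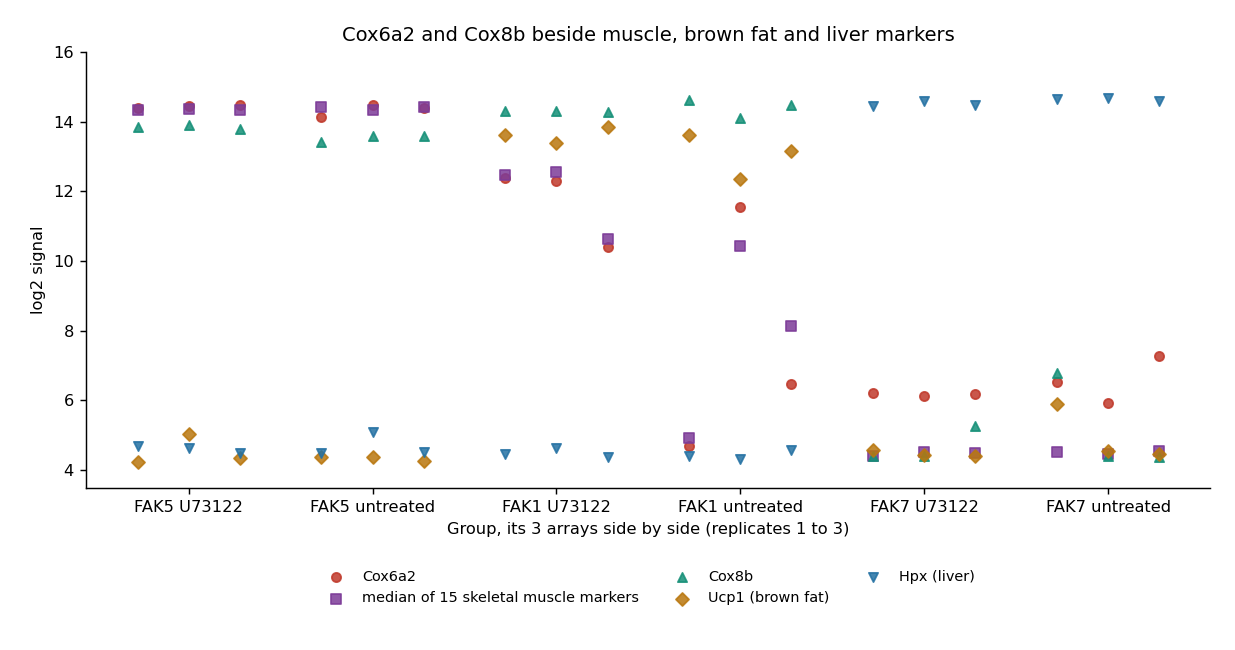
Log2 signal (y axis) of Cox6a2 and Cox8b on the 3 arrays of each group (x axis), beside the median of 15 skeletal muscle genes, the brown fat gene Ucp1 and the liver gene Hpx. On FAK1 arrays Cox6a2 lies between 4.70 and 12.39 and goes with the muscle median, while Cox8b stays between 14.11 and 14.63.

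Cox6a1, the ubiquitous partner of Cox6a2, went the other way. It had 10.81, 10.75 and 10.74 with U73122 and 10.56, 10.68 and 10.79 untreated under FAK5. Under FAK1 it had 14.27, 14.32 and 14.27 with U73122 and 14.38, 14.31 and 14.47 untreated, and under FAK7 it had 12.90, 12.82 and 12.79 with U73122 and 13.03, 12.90 and 13.10 untreated. The 3 labels were apart on every array. The differences of Cox6a1 were -2.20 ± 0.06 FAK5 over FAK7, 1.41 ± 0.06 FAK1 over FAK7 and -3.62 ± 0.06 FAK5 over FAK1 (limma adjusted p = 5.31e-16, 4.00e-13 and 3.59e-17). Its second probe gave -2.34, 1.51 and -3.86. The change of Cox6a2 minus that of Cox6a1 was 10.22 FAK5 over FAK7 and 8.37 FAK5 over FAK1.

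The other complex IV genes moved less. Cox6b2, known as a testis form of subunit 6b, had 4.87, 5.57 and 5.86 (lowest, median, highest) under FAK5, where 5 of 6 arrays detected it, 7.13, 7.31 and 7.64 under FAK1, and no detected array under FAK7. Its signal was at least 1.50-fold higher FAK5 over FAK7 and at least 5.38-fold higher FAK1 over FAK7 (limma adjusted p = 0.000271 and 4.87e-11). Its partner Cox6b1 was 0.55 ± 0.07 higher FAK5 over FAK7 and 1.37 ± 0.07 higher FAK1 over FAK7. Cox4i2, known from lung and for its link to low oxygen, was detected on 0 FAK7 arrays and was at least 2.34-fold higher FAK5 over FAK7 and at least 3.18-fold higher FAK1 over FAK7 (limma adjusted p = 1.32e-09 and 5.87e-11), beside Cox4i1 at 0.74 and 1.17. Cox5a and Cox5b, subunits without tissue forms here, differed by 1.66 and 1.15 FAK5 over FAK7 and by 1.72 and 1.34 FAK1 over FAK7. Cox7b, encoded on the X chromosome, had 10.42, 10.91 and 11.25 under FAK5 and 10.83, 11.35 and 11.43 under FAK1, against 5.93, 6.09 and 6.15 under FAK7. Its differences of 4.86 ± 0.10 and 5.19 ± 0.10 had the smallest adjusted p among the members in both comparisons (limma adjusted p = 1.51e-17 and 6.52e-18). Ndufa4 differed by 0.23 ± 0.06 FAK5 over FAK7 and by 0.90 ± 0.06 FAK1 over FAK7, and by -0.67 FAK5 over FAK1. Its FAK5 over FAK7 call was lost with arrays centred on their medians (0.12, limma adjusted p = 0.208) and among untreated groups (0.10, 0.352).

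**Figure D4:**
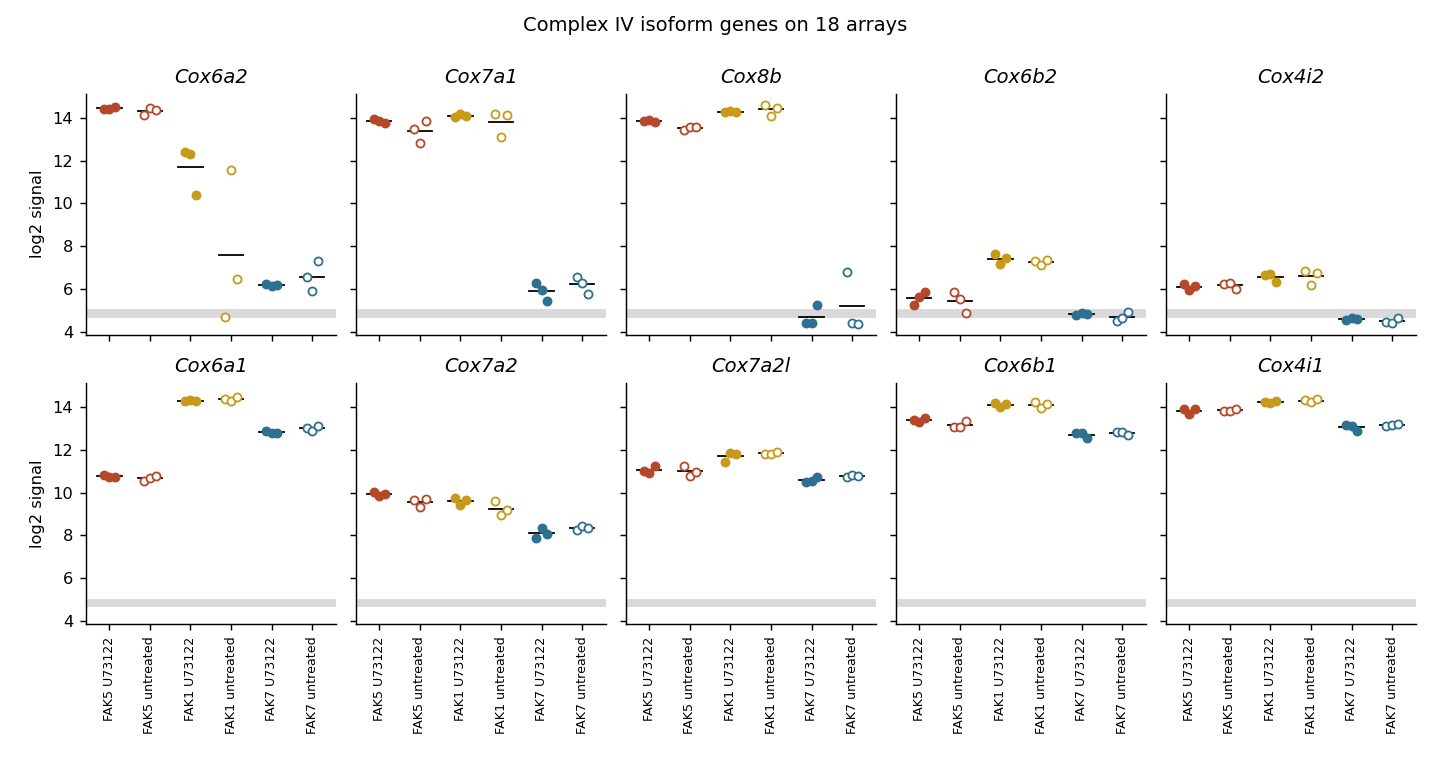
Log2 signal (y axis) of 5 tissue forms of complex IV subunits (upper row) and of other forms (lower row) on the 3 arrays of each group (x axis). Each lower panel holds the partner of the gene above it, except that Cox7a2l stands under Cox8b, whose partner Cox8a has no named probe. Filled points are U73122 arrays, open points untreated ones, and black lines group means. The grey band is the range over arrays of the lowest signal among detected probes. Cox7a1 and Cox8b are high under FAK5 and FAK1, Cox6a2 is between 14.13 and 14.49 under FAK5, and Cox6a1 is lower under FAK5 (10.56 to 10.81) than under the other labels.

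Complex V, the ATP synthase, was higher FAK5 over FAK7 for 16 of 16 members, and FAK1 over FAK7 for 13 with 2 lower. Atp5a1, the alpha subunit of the catalytic head, had 12.98, 13.42 and 13.51 under FAK5 and 12.98, 13.17 and 13.24 under FAK1, against 8.78, 9.07 and 9.32 under FAK7, with no overlap and differences of 4.32 ± 0.11 and 4.08 ± 0.11. Its second probe gave 0.94 and 1.21. Atp5b, the beta subunit that carries the catalytic sites, lay between 14.25 and 14.77 on all 18 arrays, near the top of the scale, and differed by 0.24 and 0.26. Atp5md, a small subunit of the dimer, was 5.00 ± 0.19 and 4.64 ± 0.19 higher.

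The complex V members called lower FAK1 over FAK7 were Atp5g3 and, on its brightest probe only, Atp5j. Atp5g3, a gene for the c subunit of the membrane ring, had 14.49, 14.65 and 14.58 with U73122 and 14.47, 14.20 and 14.66 untreated under FAK5. Under FAK1 it had 13.71, 13.72 and 13.48 with U73122 and 13.26, 13.12 and 13.21 untreated, and under FAK7 it had 14.18, 14.29 and 14.18 with U73122 and 14.25, 14.20 and 14.39 untreated. All FAK1 arrays lay below those of both other labels, with differences of -0.83 ± 0.08 FAK1 over FAK7 (limma adjusted p = 2.04e-08) and 1.09 ± 0.08 FAK5 over FAK1 (9.31e-10). FAK5 over FAK7 it differed by 0.26 ± 0.08, a call that was lost among untreated groups (0.16, limma adjusted p = 0.253) and without the 4 untreated arrays that carry Eif2s3y (0.14, 0.122). Atp5g2, which encodes the same mature protein, differed by 0.22 ± 0.10 FAK5 over FAK7 (limma adjusted p = 0.0437, or -0.15 with arrays centred on their medians), by -0.19 ± 0.10 FAK1 over FAK7 (0.0795) and by 0.41 ± 0.10 FAK5 over FAK1 (0.00119). The first of these calls was lost among untreated groups (0.11, limma adjusted p = 0.542) and without untreated FAK5 replicate 2 (0.16, 0.122), and when some other single arrays were left out. The FAK5 over FAK1 call of Atp5g2 was lost among untreated groups too (0.36, limma adjusted p = 0.0931). Without the 4 untreated arrays that carry Eif2s3y, Atp5g2 differed by 0.34 FAK5 over FAK7 and by 0.62 FAK5 over FAK1. Atp5j, coupling factor 6 of the stalk, differed by -0.55 ± 0.10 FAK1 over FAK7 on its brightest probe, but of its 2 other probes 1 gave 1.50 and 1, detected on 0 FAK7 arrays, was at least 5.79-fold higher, so no direction can be given for the gene in that comparison. Atp5d, the delta subunit, was the complex V member with the most negative FAK5 over FAK1 difference, -0.51 ± 0.06.

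Probes of a gene agreed less well in other members too. Among 25 members with several probes tested, 5 had probes of both signs FAK5 over FAK7, 1 FAK1 over FAK7 and 8 FAK5 over FAK1. Ndufc2 was 1.27 higher FAK1 over FAK7 on the brightest probe, while its second probe, detected on 1 of 6 FAK7 arrays, was at least 54.3-fold higher. The largest fitted gap between probes of a gene was 4.74 in that comparison, for Ndufc2, and 4.60 FAK5 over FAK7, for Sdhc. Cox6a2, Cox7a1, Cox7b, Cox8b, Ndufb4 and Ndufb5 have 1 probe each, so the sizes of their differences could not be read on a second probe. Among untreated groups, the FAK5 over FAK7 calls of Cox7a2l (limma adjusted p = 0.118) and Atp5b (0.105) were lost too.

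Genes that build, feed or regulate the chain were read from lists chosen with earlier results of these data known. The counts of these lists stand against the shares of all genes called. Those were 40.5% higher and 40.0% lower FAK5 over FAK7, 40.3% and 35.3% FAK1 over FAK7, and 27.8% and 32.9% FAK5 over FAK1. Of 8 tested genes of other nuclear chain components, 6 were higher and 1 lower FAK5 over FAK7, and 8 were higher FAK1 over FAK7. FAK5 over FAK1, 7 of the 8 were lower, among them Gpd2, the mitochondrial glycerol phosphate dehydrogenase (-2.72 ± 0.11), and Etfdh, the electron transfer flavoprotein dehydrogenase (-1.84). Etfb, an electron carrier of fatty acid oxidation, was the gene called lower FAK5 over FAK7 (-0.45 ± 0.07). Of 39 assembly factors, which help build the complexes, 30 were higher and 4 lower FAK5 over FAK7, 33 and 2 FAK1 over FAK7, and 8 and 20 FAK5 over FAK1. Ndufaf5, an assembly factor of complex I, differed by 2.78 FAK5 over FAK7, and Ndufaf3 by -1.14.

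Of 16 genes of the citrate cycle and pyruvate dehydrogenase, 14 were higher and 2 lower FAK5 over FAK7, 16 were higher FAK1 over FAK7, and 4 were higher and 12 lower FAK5 over FAK1. Their median differences over FAK7 were 2.25 and 2.58, beside 1.38 and 1.58 for the chain subunits. Cs, citrate synthase, was 3.60 and 4.25 higher, and Idh3b, a subunit of isocitrate dehydrogenase, differed by -1.89 FAK5 over FAK7 and by -4.39 FAK5 over FAK1. Of 72 mitochondrial ribosomal proteins, 39 were higher and 20 lower FAK5 over FAK7 and 47 and 11 FAK1 over FAK7, with medians of 0.27 and 0.46. Of 53 cytosolic ribosomal proteins, 13 were higher and 26 lower FAK5 over FAK7, and 15 and 19 FAK1 over FAK7.

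The 14 genes of known regulators did not move one way. FAK5 over FAK7, 7 were higher and 6 lower, FAK1 over FAK7 8 and 4, and FAK5 over FAK1 2 and 7. Perm1, a muscle regulator of oxidative genes, was 6.20 ± 0.22 higher FAK5 over FAK7 and 4.29 ± 0.22 higher FAK1 over FAK7, and Ppargc1b, a coactivator of mitochondrial genes, was 1.68 and 3.76 higher. FAK5 over FAK1, Ppargc1b differed by -2.08 ± 0.15 and Gabpa, the ETS subunit of GABP, by -1.61. Polrmt, the mitochondrial RNA polymerase, differed by -1.08 ± 0.08 FAK5 over FAK7.

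The study's own question was how U73122 changes the cells. By limma, no member passed the threshold under FAK5 (0 of 75, where 0.0701% of all genes were called), FAK1 (0 of 75, 0.885%) or FAK7 (0 of 75, 0.570%). At an unadjusted p under 0.05 the counts were 22 (29.3%) under FAK5, 4 (5.33%) under FAK1 and 7 (9.33%) under FAK7, where 11.3%, 11.5% and 10.3% of all genes had one, so only the FAK5 share lay above that of all genes. Over the 3 labels, with the 3 arrays of each group averaged, 0 of 75 members passed (0% of all genes), and 2 (2.67%) had an unadjusted p under 0.05, against 5.39% of all genes. The F test of the difference in response between labels called 0 members (0.377% of all genes), and 17 (22.7%) had an unadjusted p under 0.05, against 12.1% of all genes. The median difference was 0.13 under FAK5, with 60 of 75 above 0, against 0.011 over all genes. It was 0.09 under FAK1, with 57 above 0, against -0.011, and -0.12 under FAK7, with 13 above 0, against 0.004. Untreated FAK1 replicate 2 had the lowest median of all members among FAK1 arrays, 12.87. Without that array the FAK1 median difference was -0.009, against -0.024 over all genes. The treated and untreated arrays did not overlap for 14 members under FAK5, all higher, for 8 under FAK1, all higher, and for 22 under FAK7, of which 21 were lower. As shares, 18.7% of members were all higher under FAK5 and 10.7% under FAK1, where 6.54% and 7.31% of all genes were, and 28.0% were all lower under FAK7, against 9.47% of all genes. Markers of other cell types had differences beside these. Of 9 fibroblast genes, 9 had a difference above 0 under both FAK5 (median 0.80) and FAK1 (1.18) and 4 under FAK7 (-0.05), with 0 called. Of 10 myeloid genes tested, 9 had one under FAK7 (median 0.79), with 1 called higher. The myeloid list also had 9 above 0 under FAK5 (0.25) and 7 under FAK1 (0.17). Of 10 endothelial genes, 2 were above 0 under FAK5 (median -0.29), 3 under FAK1 (-0.15) and 6 under FAK7 (0.06). Of 6 general fat genes, 1 was above 0 under FAK5 (-0.30), 3 under FAK1 (0.02) and 3 under FAK7 (-0.07). The log2 signals of the fibroblast list summed to 95.2 to 97.7 with U73122 and 79.4 to 96.9 untreated under FAK5, and to 85.6 to 88.4 and 72.9 to 81.8 under FAK1. The median signal of the myeloid list was 9.26 to 9.97 with U73122 and 8.57 to 8.84 untreated under FAK7. Their part in the shifts of the subunits was not tested.

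Single members with the smallest p showed differences of modest size. Ndufv3 had 12.61, 12.53 and 12.21 with U73122 and 12.01, 11.83 and 12.25 untreated under FAK5, a difference of 0.42 ± 0.12 with overlapping arrays (limma adjusted p = 0.185). Atp5k, a small subunit of the ATP synthase dimer, had 8.76, 8.69 and 8.24 with U73122 and 7.54, 7.47 and 8.40 untreated, a difference of 0.76 ± 0.22 (limma adjusted p = 0.205). Untreated FAK5 replicate 2 had the lowest median of all members among FAK5 arrays, 12.64. When untreated replicates 1 and 3, which carry Eif2s3y, were left out under FAK5 and FAK1, that array alone stood for untreated FAK5, as untreated replicate 2 did for FAK1. With the spread then taken from the other groups, on the assumption that a lone array varies as they do, 16 members were called under FAK5, 3 under FAK1 and 19 in the test between labels. By sex transcripts, untreated replicate 2 went with the treated arrays of its label, with Xist at 9.80 under FAK5 and 10.55 under FAK1. Untreated replicates 1 and 3 carried Eif2s3y instead. Under FAK5 and FAK1 the effect of U73122 therefore cannot be told apart from a difference between animals.

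Under FAK1, Atp5g3 had the smallest p, with a difference of 0.44 ± 0.11 (limma adjusted p = 0.0620) between the arrays given above, which did not overlap. It passed the threshold without untreated FAK5 replicate 2 (adjusted p = 0.0185) or 3 (0.0440), which enter through the shared spread, without U73122 FAK1 replicate 3 (0.0255), and without the 4 untreated arrays that carry Eif2s3y (0.0318), where untreated FAK1 is replicate 2 alone. Cox6a2 differed by 4.11 ± 1.07 under FAK1 (limma adjusted p = 0.0818), with overlapping arrays. It passed without untreated FAK1 replicate 2 (6.10, adjusted p = 1.98e-06), without U73122 replicate 3 (4.76, 0.0444) and with arrays centred on ribosomal protein genes (4.35, 0.0243). Beside it, 12 of the 15 skeletal muscle genes were called higher with U73122 under FAK1, with a median of 4.55, and the part of muscle RNA in the Cox6a2 difference was not tested. Under FAK5, where muscle genes were high on all arrays, Cox6a2 differed by 0.11 ± 1.07.

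Under FAK7, Ndufs7, a core iron-sulfur subunit of complex I, had 11.25, 11.40 and 11.32 with U73122, against 11.62, 11.67 and 11.80 untreated. Each treated array lay below each untreated one, a difference of -0.37 ± 0.09 (limma adjusted p = 0.0882). Sdhb had 10.01, 10.26 and 10.21 with U73122 and 10.61, 10.52 and 10.46 untreated (-0.37 ± 0.11, limma adjusted p = 0.179). Ndufa5 and Ndufa8, accessory subunits of complex I, differed by -0.31 and -0.33 without overlap. Over the 3 labels the smallest p was that of Ndufb10, -0.51 ± 0.14 (limma adjusted p = 0.817). Its brightest probe was low on U73122 replicate 3 of both FAK5 (9.20) and FAK1 (8.77), and its second probe gave 0.63 and 0.34 in those labels where the first gave -0.48 and -0.88, so the probes of Ndufb10 disagree.

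**Figure D5:**
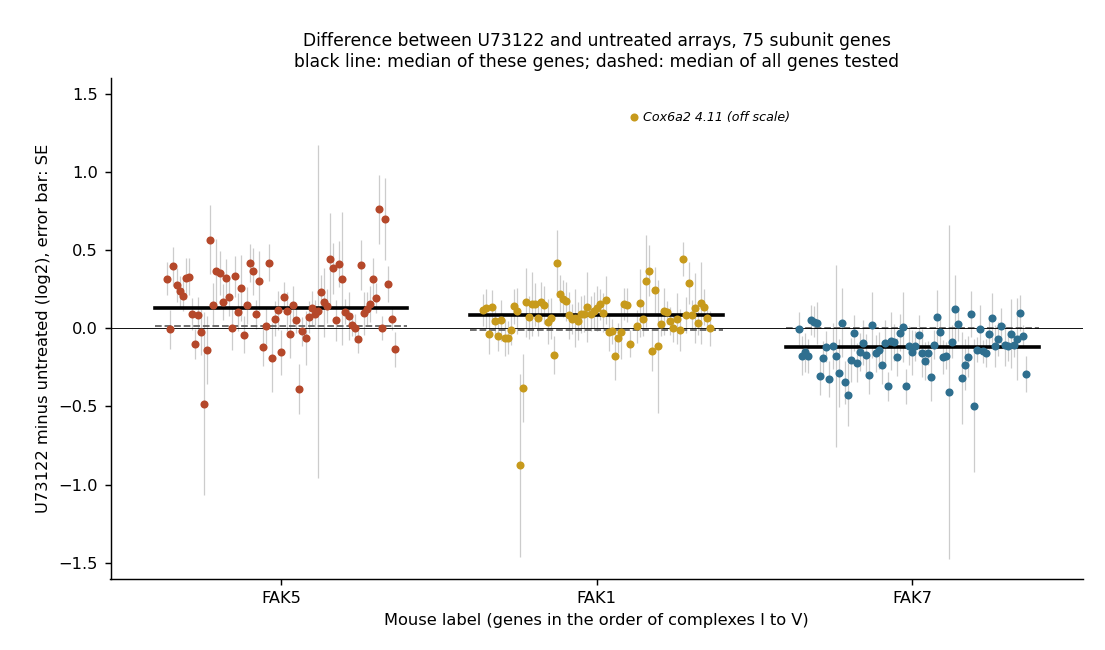
U73122 minus untreated in log2 (y axis), with the standard error, for 75 subunit genes in each label (x axis, in the order of complexes I to V); the black line is their median and the dashed line that of all genes tested. Medians lie at 0.13 under FAK5, 0.09 under FAK1 and -0.12 under FAK7, no gene passed the threshold, and Cox6a2 under FAK1 (4.11) is beyond the axis.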

How the data were processed

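Each of 18 total RNA samples was hybridised to 1 Illumina mouse bead array. The deposited non-normalized table gives an intensity per probe and, per the file headers, a detection p-value, the deposited series matrix a processed intensity, used as an alternative. Of the deposited intensities, 23.2% to 30.9% per array lie under 0, as after background subtraction; the software is not given in the sources used here. All value columns were matched to samples by name. One allele of the genotype and the sorting marker are not reported here by name.

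Of 45281 probes, 34885 have 1 symbol in the platform annotation, 18 several and 10378 none. Intensities were corrected and quantile normalized with neqc of limma 3.58.1 (R 4.3.3, offset 16) and taken to log2. A probe was kept if 1 or more groups had it detected (p under 0.05) on each of their 3 arrays (21193 probes, of which 3210 unnamed were left out), and 11406 genes were each read from their brightest probe. Per array, 38.2% to 44.2% of probes reached detection. Precision is limited by the number of arrays. A single limma model over the 18 arrays had 1 mean for each group and an intensity trend. The effect over the labels used 6 averaged profiles with the label as a term. Every test was two-sided, and p-values were adjusted over all genes (Benjamini-Hochberg). Members, lists and tests were chosen with earlier results of these data known. Named genes are the isoform pairs, the subunits of complex II, the 2 highest and 2 lowest members of each complex per label comparison, the 4 smallest p per U73122 comparison, and the extremes of each list; Ndufc2, Ndufs1 and the probes that disagree were added after their values were seen. Tested on simulated data with 200 of 11406 genes changed, 2-fold changes were recovered for 92.5% of genes FAK5 over FAK7, 95.5% FAK1 over FAK7 and 89.6% FAK5 over FAK1, and for 71.6%, 71.6% and 70.1% for U73122 under FAK5, FAK1 and FAK7. At 1.5-fold the U73122 shares were 32.8%, 37.3% and 25.4%. The simulation gave each gene 1 mean over all groups, let genes vary independently of each other and had no top of the scale. Between labels the real data had 6928 to 9178 genes called, so the simulated shares need not hold for these arrays. Promoter sequences are RefSeq's (GRCm38.p6), matched by Entrez number.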

Additional observations from a re-analysis of the deposited data

How the results depend on the processing

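Counts of members called higher or lower over FAK7 stayed within 1.5 times under most alternatives, with 66 to 73 of 75 members higher FAK5 over FAK7 wherever 75 were tested. FAK5 over FAK7, 6 were lower with each probe tested on its own and 1 with bright probes left out, against 2. FAK1 over FAK7, 1 was lower with the mean of probes and 0 with bright probes left out, against 2. FAK5 over FAK1, 12 were higher with each probe on its own, 4 among untreated groups and 3 with bright probes left out, against 7, and 16 were lower with ribosomal centring, against 38. For U73122, where no member was called, FAK1 gave 1 with ribosomal centring, and leaving out the 4 untreated arrays with Eif2s3y gave 16 under FAK5, 3 under FAK1 and 19 between labels. Leaving out each array in turn gave 0 to 2 under FAK1, 0 to 1 between labels, 6 to 11 higher and 33 to 41 lower FAK5 over FAK1, 71 to 73 higher FAK5 over FAK7, and 71 to 72 higher and 2 to 3 lower FAK1 over FAK7. Directions reversed for Atp5g2 (-0.15), Cox7a2l (-0.031) and Sdhc (-0.025) FAK5 over FAK7 with median centring, for Cox5a (0.083) and Uqcrh (0.083) FAK5 over FAK1 with ribosomal centring, for Atp5j (1.31) FAK1 over FAK7 and Ndufb11 (-0.18) FAK5 over FAK1 with the mean of probes, and for Cox5a (0.014) and Ndufb11 (-0.0021) FAK5 over FAK1 without the 3 FAK1 arrays with most muscle signal, which are its U73122 arrays. Ribosomal centring moved the median of all genes by over 0.1 (to 0.14 FAK5 over FAK7, 0.11 FAK5 over FAK1 and 0.22 for U73122 under FAK1). The causes were not tested. The replicate block, with the replicate number within each label, gave 1 member under FAK1, Cox6a2 (adjusted p = 0.0354), 36 lower FAK5 over FAK1, and the same counts elsewhere. Same-numbered arrays deviated together with a correlation over 0.1 in 6 of 9 pairs, within a range of -0.04 to 0.28. These values do not settle whether the numbers pair the samples, and the main fit did not use the numbers. Alternatives that leave out bright probes, genes not detected on all arrays, or the 3 FAK1 arrays with most muscle signal were chosen after seeing the data.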
